A study of Mus musculus with 24 samples.

Results

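Male inguinal progenitors that carry the surface peptidase DPP4 were compared with progenitors of the same fat pad that lack it. The comparison used the 3 M_DPP4_pos and the 3 M_DPP4_neg libraries and took every gene with a normalised count of at least 10 in at least 3 of these 6 libraries, which was 13045 of the 27179 genes in the table. All 6 libraries are bulk RNA sequencing of PDGFRb+ cells sorted from the inguinal white adipose tissue of male C57BL/6 mice, split by DPP4 into a positive group (M_DPP4_pos) and a negative group (M_DPP4_neg). The series holds 24 libraries in 8 groups of 3, and the other groups used here are F_DPP4_pos and F_DPP4_neg, the same split in females, and M_FIP and M_APC, which are PDGFRb+ cells from the gonadal fat of males. For the sort gates in full, the age of the mice and any pooling of animals, nothing is given in the sources used here. The labels do not tie the replicates of a group to different mice, and each p-value below therefore rests on library-to-library variation, part or all of which may be technical. Tests used limma on log2(normalised count + 1), and fold changes are on that scale, with standard errors, which understates the change of scarce genes.

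White fat grows in part by making new adipocytes from PDGFR-bearing progenitors that lie along vessels and in the connective tissue between the lobules. In mouse inguinal fat, DPP4+ cells marked by Pi16 and Cd55 are held to be an early interstitial progenitor that can give rise to ICAM1+ preadipocytes, which already carry lipid-handling genes controlled by PPARG, the master regulator of adipocyte formation. Another population, marked by F3 (CD142), has been reported to restrain adipogenesis.

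M_DPP4_pos cells carried far more Gpr1, Bmp7, Dmkn, Sema3e and Pi16, among others, while M_DPP4_neg cells carried far more Lamc3, Hhip, Sparcl1, Cxcl14, Apoe and Fabp4. At an adjusted p under 0.05, 6074 of the 13045 genes were called (46.6%), 3084 of them higher in M_DPP4_pos (23.6%) and 2990 lower (22.9%). Past a 2-fold change, 841 were higher and 1329 lower. The libraries of the groups did not overlap for 7397 genes (56.7%), and the median log2 fold change over all genes tested was 0.03. Counts of list members below are to be read against these shares. They cover only members past the filter on low values. A member carried by a single group passes that filter only by being high there. In bulk libraries, fewer cells with a transcript and less of it per cell cannot be told apart.

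**Figure D1:**
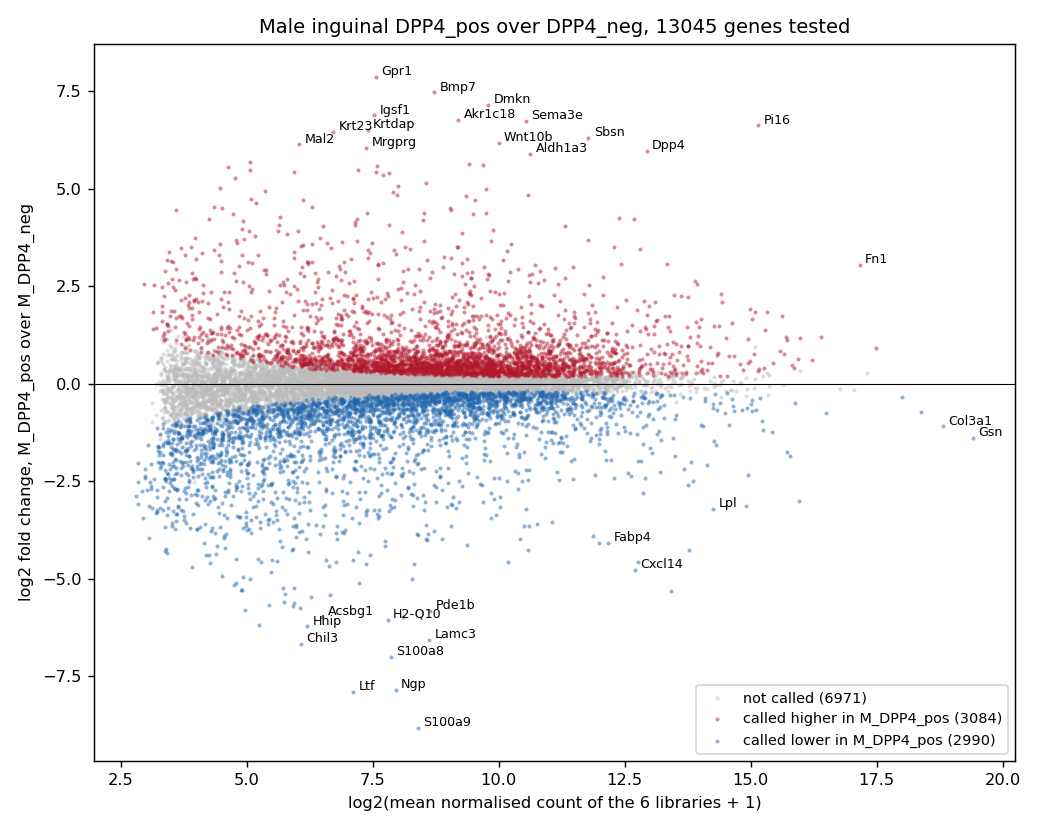
Each point is a gene, placed by the log2 of its mean normalised count plus 1 over the 6 libraries (x axis) and by its log2 fold change, M_DPP4_pos over M_DPP4_neg (y axis), with red for genes called higher, blue for genes called lower and grey for genes not called. Gpr1 stands highest of the named genes at 7.88 and S100a9 lowest at -8.83.

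Recovered reads per library were 14040155 to 15011105 in M_DPP4_pos and 13055651 to 15929327 in M_DPP4_neg. The 10 genes with most reads took 13.4% to 13.6% of them in M_DPP4_pos and 19.1% to 19.5% in M_DPP4_neg. Sex-linked transcripts went with the labels, since the female-specific Xist had 3.39, 4.61 and 4.41 normalised counts in M_DPP4_pos and 0, 5.11 and 4.93 in M_DPP4_neg, and the Y-linked Ddx3y had 3115, 3013 and 3213 in M_DPP4_pos and 2278, 2220 and 2374 in M_DPP4_neg. Replicate 1 of M_DPP4_neg stood apart by transcript length. For its deviation from the mean of the other 2 libraries of its group, genes were ranked by transcript length into 5 equal parts, and at the median the shortest part deviated by 0.285 on the log2 scale and the longest by -0.286. Replicate 2 of M_DPP4_neg had reads in 20103 genes, against 17686 and 17955 in the other M_DPP4_neg libraries. Without replicate 1 of M_DPP4_neg, 7340 genes were called, and list counts that move by more than 1.5 times without it, and genes named here whose call changes, are given both ways.

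**Figure D2:**
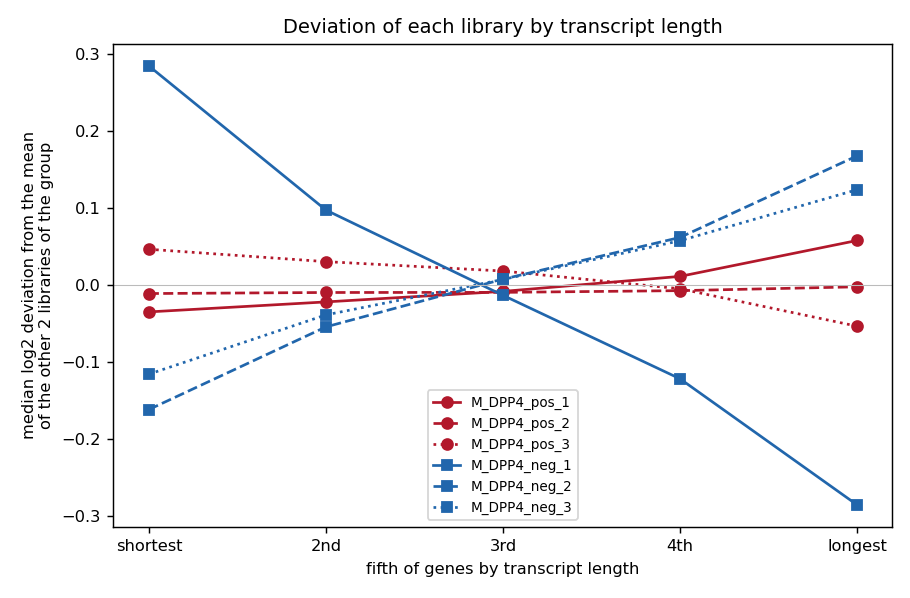
The median log2 deviation of each of the 6 libraries from the mean of the other 2 libraries of its group (y axis) is drawn for 5 equal parts of the genes by transcript length, shortest to longest (x axis). The line of M_DPP4_neg replicate 1 runs from 0.285 down to -0.286, while the 3 M_DPP4_pos lines stay between -0.0536 and 0.0579.

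The genes of the gate were read first. Dpp4 (chromosome 2, 62330073 to 62412315, GRCm38.p6) had 14880, 15350 and 16080 normalised counts in M_DPP4_pos libraries, against 242.5, 234.9 and 257.7 in M_DPP4_neg libraries, a level that the sort set and no finding. Pdgfrb, the receptor gene used to sort all cells, had 2369, 2434 and 2078 in M_DPP4_pos and 3720, 4306 and 4213 in M_DPP4_neg, so both groups carried it and M_DPP4_pos less (log2 fold change -0.83 ± 0.09 SE, adjusted p = 3.66e-05). Of the 14 gate and mesenchymal surface genes, 5 were higher and 7 lower, Dpp4 and Pdgfrb included. Cd24a, a glycoprotein gene used to mark early progenitors, had 816.1, 782.1 and 938.3 in M_DPP4_pos and 137, 75.57 and 112.2 in M_DPP4_neg (2.99 ± 0.19), with no overlap. The sialomucin gene Cd34 (1.23 ± 0.07), Nt5e, which encodes the ectonucleotidase CD73 (1.88 ± 0.10), and Ly6a, which encodes SCA1 (0.72 ± 0.13), were also higher. The adhesion molecule genes Vcam1 (-2.42 ± 0.06) and Icam1 (-1.05 ± 0.07) were lower, whereas Itgb1 (0.05 ± 0.06) and Cd44 (0.13 ± 0.07) did not pass the test. Ly6a has near-identical relatives, among which reads may be split.

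All 20 interstitial progenitor genes were higher in M_DPP4_pos, with a median log2 fold change of 3.49. The list contains Dpp4 and was built from known markers of DPP4+ cells, so its direction is no independent result. Pi16, a peptidase inhibitor gene (chromosome 17, 29318796 to 29328903), had 69150, 67270 and 79300 normalised counts in M_DPP4_pos and 814.9, 663.8 and 700.4 in M_DPP4_neg. The fitted difference was 99-fold (6.63 ± 0.10, adjusted p = 1.98e-10). Cd55, the complement decay-accelerating factor gene, had 8798, 8561 and 10050 in M_DPP4_pos and 822, 765.9 and 802.7 in M_DPP4_neg (3.51 ± 0.08). Sema3c, which encodes a secreted guidance cue, had 13000, 12770 and 13370 in M_DPP4_pos and 1049, 1247 and 1244 in M_DPP4_neg (3.47 ± 0.08). The gap was narrower for Ly6c1 (1.36 ± 0.11) and for Cd248, the endosialin gene (1.49 ± 0.07).

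The genes highest in M_DPP4_pos were taken as the 15 with the largest fold change, predicted and clone-named genes aside. Only genes whose higher group averages 100 or more were ranked, and the 15 included several kinds beside Pi16 and Dpp4. Gpr1, a chemerin receptor gene (chromosome 1, 63182571 to 63223278), had 339.1, 363.4 and 429.5 normalised counts in M_DPP4_pos and 1.01, 1.02 and 0 in M_DPP4_neg. Over the groups that is 1005 reads against 2, a ratio of 556 with a 95% interval of 143.4 to 4295 that covers counting error only. The gene was thus all but undetected in M_DPP4_neg. Dmkn, Sbsn and Krtdap are genes best known from stratified epithelium, and Krt23 is a keratin gene. Dmkn had 1659, 1794 and 1792 in M_DPP4_pos and 21.31, 13.28 and 4.93 in M_DPP4_neg (7.14 ± 0.38), and Sbsn had 6638, 6654 and 7523 in M_DPP4_pos and 125.8, 75.57 and 69.05 in M_DPP4_neg (6.30 ± 0.19). Krtdap (6.505 ± 0.38) and Krt23 (6.47 ± 0.47) were higher too. Akr1c18, which encodes a progesterone-inactivating enzyme and has close paralogs, had 1060, 1142 and 1276 in M_DPP4_pos and 19.28, 7.15 and 6.17 in M_DPP4_neg (6.77 ± 0.33). Aldh1a3, a retinoic acid synthesis gene, had 3137, 2999 and 3156 in M_DPP4_pos and 72.05, 45.95 and 39.46 in M_DPP4_neg (5.90 ± 0.18). Igsf1 (6.89 ± 0.28), Mal2, a membrane-traffic gene (6.14 ± 0.41), and Mrgprg, an orphan receptor gene (6.04 ± 0.17), belong to the same set. Bmp7, Sema3e and Wnt10b complete it and are described with their families. Bmp7, Aldh1a3, Sbsn and Krtdap, like Pi16 and Dpp4 and like Wnt2 and Dact2 below, belong to the interstitial progenitor list. Their direction is no independent result.

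**Figure D3:**
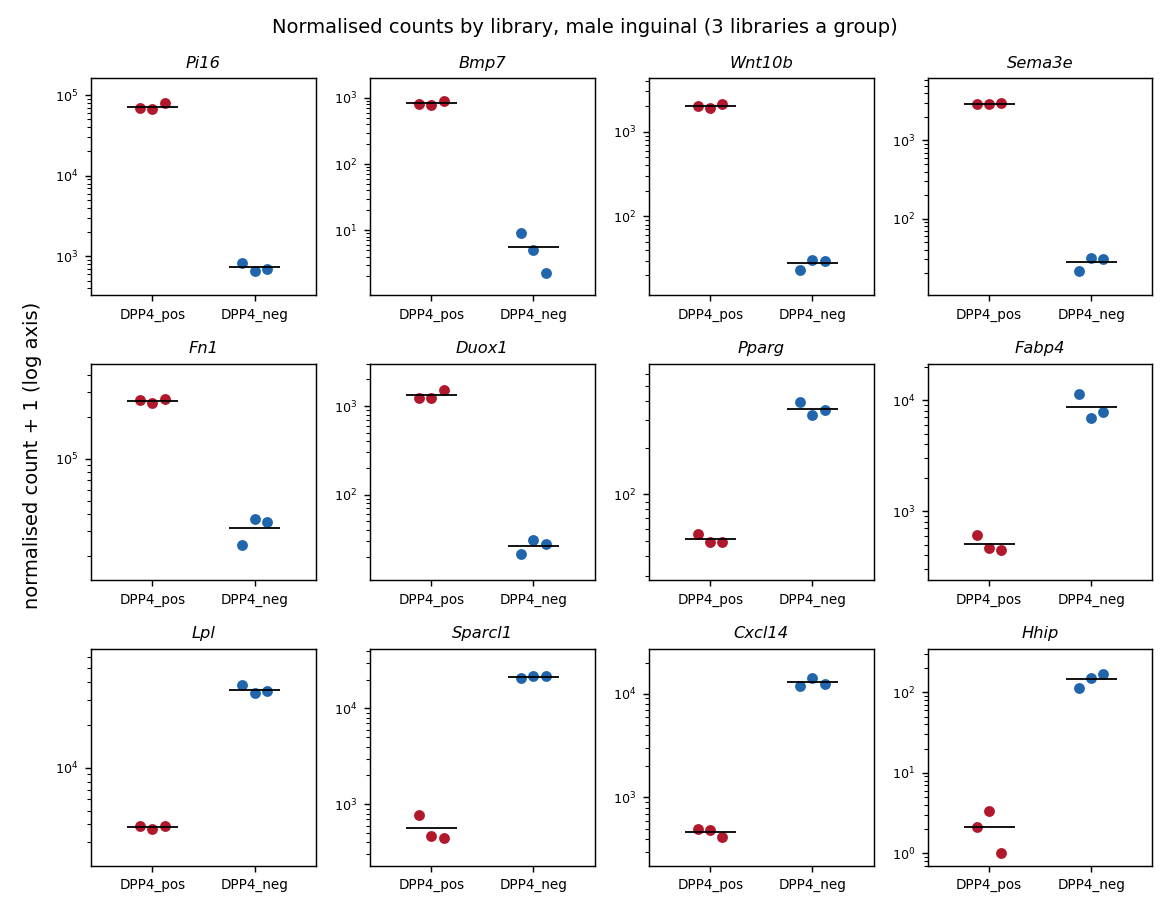
Normalised counts plus 1 on a log axis (y axis) are drawn for 12 genes in the 3 M_DPP4_pos libraries (red, left) and the 3 M_DPP4_neg libraries (blue, right), with a bar at the mean of each group. The groups do not overlap in any panel, with Pi16, Bmp7, Wnt10b, Sema3e, Fn1 and Duox1 higher in M_DPP4_pos and Pparg, Fabp4, Lpl, Sparcl1, Cxcl14 and Hhip lower.

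Of the 17 committed preadipocyte genes, 16 were lower in M_DPP4_pos and 1 was higher, with a median of -3.00. The higher member was past a 2-fold change too and is not named here, so the members described below are all lower ones. The list names cells that the DPP4- gate is known to hold, so its direction is no independent result either. Pparg had 54.26, 48.45 and 48.46 normalised counts in M_DPP4_pos and 392.7, 323.7 and 350.2 in M_DPP4_neg (-2.79 ± 0.12, adjusted p = 8.79e-08). Fabp4, the gene of a fatty acid carrier, had 610.4, 469.5 and 447.1 in M_DPP4_pos and 11340, 6974 and 7834 in M_DPP4_neg (-4.08 ± 0.18). Lpl, the lipoprotein lipase gene, had 3910, 3691 and 3914 in M_DPP4_pos and 38080, 33200 and 34580 in M_DPP4_neg (-3.20 ± 0.08). None of these genes overlapped between the groups. Sparcl1, a matrix-associated glycoprotein gene, had 769.8, 464.9 and 443.8 in M_DPP4_pos and 20850, 21600 and 21650 in M_DPP4_neg (-5.30 ± 0.18), the widest gap of the genes given here. The chemokine gene Cxcl14 had 494, 490.3 and 419.6 in M_DPP4_pos and 11890, 14240 and 12470 in M_DPP4_neg (-4.78 ± 0.09), and the apolipoprotein gene Apoe had 656.8, 522.6 and 501.1 in M_DPP4_pos and 15960, 11740 and 12550 in M_DPP4_neg (-4.58 ± 0.13). Dlk1, the preadipocyte factor gene, was scarce in both groups (9.04, 4.61 and 4.41 in M_DPP4_pos and 29.43, 25.53 and 19.73 in M_DPP4_neg).

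Markers of the F3+ stromal population were also lower in M_DPP4_pos, 10 of 12 with 1 higher and a median of -1.92. The list names a population described apart from DPP4+ cells, so its direction is no independent result. F3, which encodes tissue factor, had 2026, 1951 and 1964 normalised counts in M_DPP4_pos and 8137, 7513 and 7226 in M_DPP4_neg (-1.94 ± 0.07, adjusted p = 2.39e-08). Mgp, the matrix Gla protein gene, fell by 3.15 ± 0.19, and Clec11a, which encodes a bone growth factor, fell by 2.90 ± 0.13. Igfbp3 was the member that was higher (0.47 ± 0.10), and the sterol exporter gene Abcg1 did not pass the test (0.34 ± 0.14).

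Adipogenic transcription factor genes did not move one way: 9 of 28 were higher and 11 lower. Rxrg, a partner of PPARG, had 2.26, 2.31 and 0 in M_DPP4_pos and 77.13, 35.74 and 41.92 in M_DPP4_neg (-4.49 ± 0.53), and Nr1h3, the LXR-alpha gene, fell by 1.78 ± 0.12. The early adipogenic factor genes Cebpb (0.16 ± 0.09) and Cebpd (0.22 ± 0.11) and the glucocorticoid receptor gene Nr3c1 (-0.16 ± 0.09) did not pass the test. Without M_DPP4_neg replicate 1 these 3 were called, at 0.24, 0.35 and -0.23. Among lipid uptake genes, 7 of 22 were higher and 12 lower. Cd36, the fatty acid translocase gene, had 299.6, 248 and 237.9 in M_DPP4_pos and 3453, 2656 and 3455 in M_DPP4_neg (-3.60 ± 0.13), and Plin2, a droplet coat gene, had 471.4, 475.3 and 459.3 in M_DPP4_pos and 7626, 6504 and 7048 in M_DPP4_neg (-3.91 ± 0.08). The sterol carrier gene Npc2 was modestly higher (0.52 ± 0.11).

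Of 16 genes of the mature adipocyte 8 were lower and the others were not called, with 5 lower without M_DPP4_pos replicate 2 and likewise without M_DPP4_pos replicate 3. Plin4, a droplet protein gene, had 110.8, 77.29 and 92.51 in M_DPP4_pos and 1854, 2203 and 2663 in M_DPP4_neg (-4.57 ± 0.16), and Lpin1, a phosphatidate phosphatase gene, fell by 2.29 ± 0.15. The leptin gene Lep (-0.57 ± 0.36) did not pass the test, at 5.65, 10.38 and 8.81 in M_DPP4_pos and 15.22, 10.21 and 12.33 in M_DPP4_neg. Fatty acid synthesis genes were 5 higher and 5 lower of 15, with 3 higher without M_DPP4_pos replicate 1. Me1, the malic enzyme gene (1.04 ± 0.10), and the desaturase gene Scd2 (0.81 ± 0.12) were higher, Acacb (-2.74 ± 0.21) and the elongase gene Elovl6 (-0.93 ± 0.09) were lower, and Fasn, the synthase itself, was level (0.02 ± 0.11).

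Of 26 cholesterol synthesis and uptake genes 17 were lower in M_DPP4_pos and the others were not called, with a median of -0.94. Sqle, the squalene epoxidase gene, had 350.4, 333.4 and 354.6 normalised counts in M_DPP4_pos and 1842, 2030 and 1933 in M_DPP4_neg (-2.48 ± 0.08, adjusted p = 9.26e-09). Msmo1 and Cyp51, whose products remove methyl groups from lanosterol and its products, fell by 2.90 ± 0.14 and 2.56 ± 0.09. Stard4, a sterol carrier gene, fell by 2.42 ± 0.12. Insig1, the gene of the sterol-sensing retention protein, was lower too (-1.61 ± 0.09). SREBF2, the factor known to turn these genes on, binds sterol regulatory elements, and promoters were read for the letters TCACNCCAC on either strand, from 250 bases before to 50 bases after the start. Of the 18 list genes with a promoter in the RefSeq table (GRCm38.p6), 1 held the motif in any of its promoters (5.56%), as did 388 of all 27025 genes with a promoter (1.44%) and 138 of the 9985 tested here (1.38%). Over single promoters of that length the share was 408 of 32851 (1.24%). That gene was Hmgcs1, the gene of the synthase upstream of HMG-CoA reductase, with 676, 722.1 and 616.7 normalised counts in M_DPP4_pos and 2331, 2179 and 2213 in M_DPP4_neg (-1.74 ± 0.08). It was named after its values were seen, and its promoter (chr13:119690101-119690400, plus strand) is shown 5′ to 3′ as the match in the list, with the motif in capitals.
Hmgcs1: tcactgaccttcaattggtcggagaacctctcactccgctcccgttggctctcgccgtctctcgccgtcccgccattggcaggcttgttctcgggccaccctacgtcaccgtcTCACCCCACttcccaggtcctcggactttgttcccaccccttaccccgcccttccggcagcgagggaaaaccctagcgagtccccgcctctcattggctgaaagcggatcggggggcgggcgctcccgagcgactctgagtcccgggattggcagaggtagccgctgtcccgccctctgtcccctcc
A match describes these letters only, and the other promoters of the list lack them in this window.

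**Figure D4:**
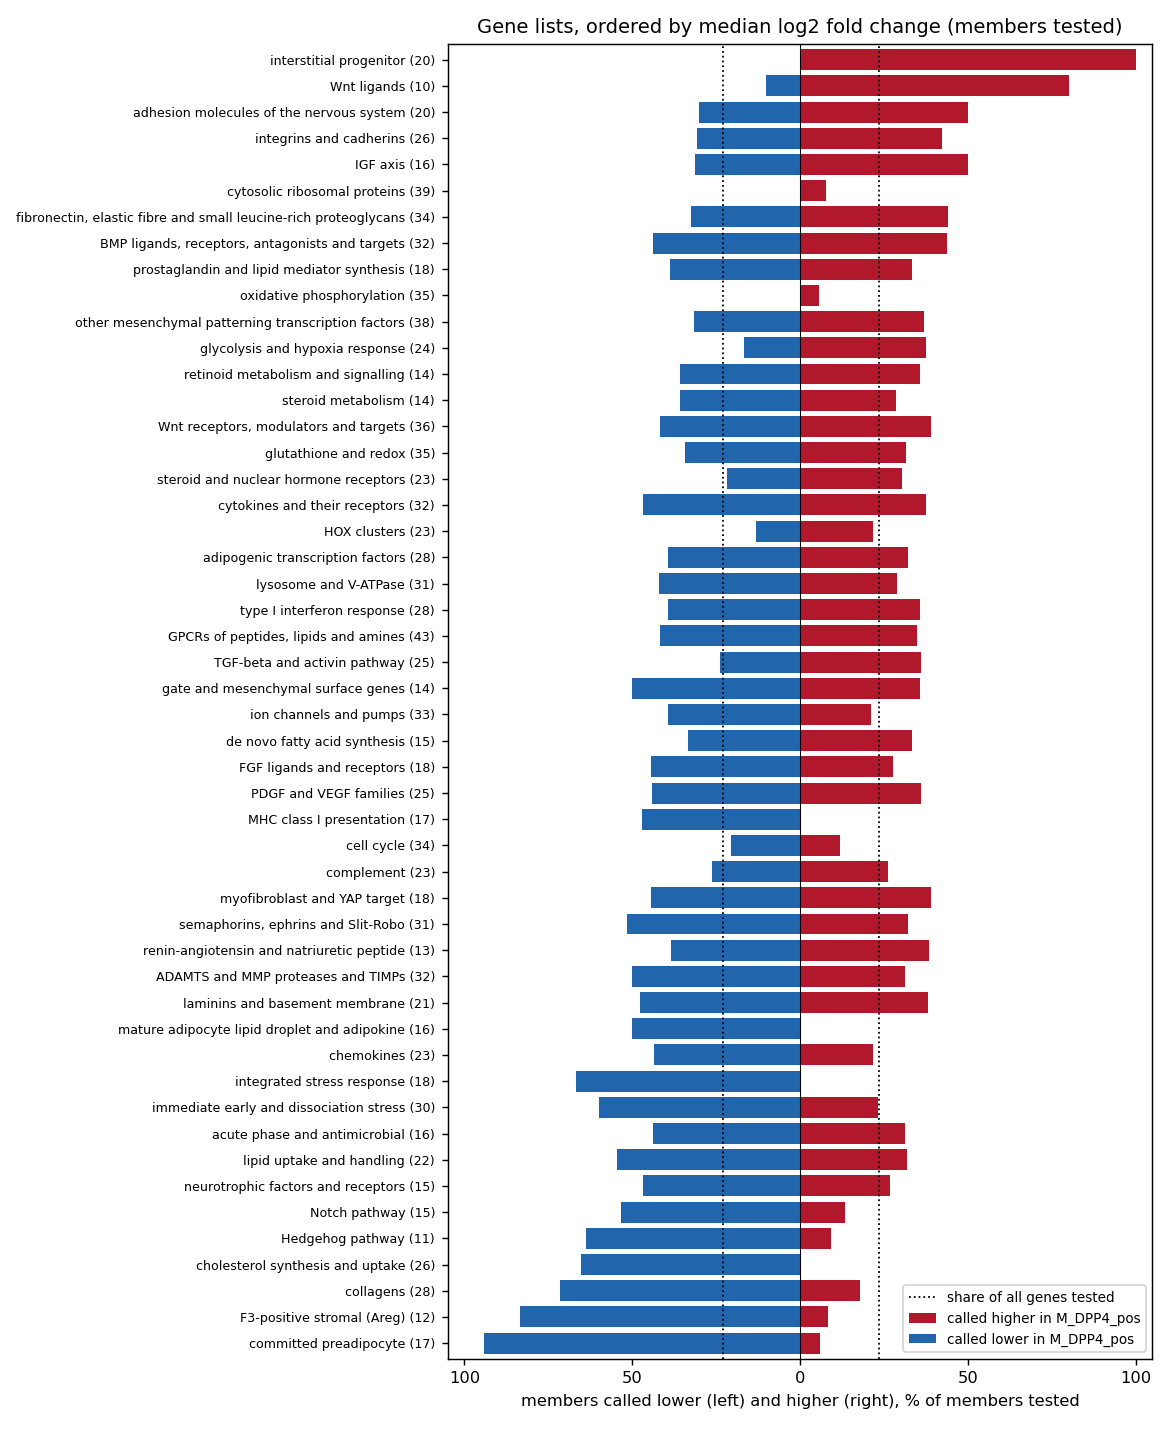
For each of 50 gene lists, ordered from top to bottom by falling median log2 fold change with the number of members tested in brackets, bars give the percentage of those members called higher in M_DPP4_pos (red, right) and lower (blue, left). Dotted lines mark the shares over all genes tested, 23.6% higher and 22.9% lower, and the interstitial progenitor list stands at the top with 20 of 20 higher and the committed preadipocyte list at the bottom with 16 of 17 lower.

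Of the 19 Wnt ligand genes in the table, 10 passed the filter on low values, and 8 of these were higher in M_DPP4_pos and 1 lower. A ligand carried by one group alone passes that filter only by being high there, so these counts describe the genes that passed and not the family. Wnt10b, a ligand gene known to hold back adipogenesis (chromosome 15, 98770712 to 98778206), had 2018, 1890 and 2128 normalised counts in M_DPP4_pos and 22.33, 29.61 and 28.36 in M_DPP4_neg (6.19 ± 0.12, adjusted p = 1.23e-09). Wnt2 had 1830, 2049 and 1956 in M_DPP4_pos and 226.3, 208.3 and 203.5 in M_DPP4_neg (3.19 ± 0.08), and Wnt11 had 1754, 1627 and 2012 in M_DPP4_pos and 844.4, 881.3 and 789.2 in M_DPP4_neg (1.10 ± 0.09). Wnt1 was scarce, with 114 reads over M_DPP4_pos against 3 over M_DPP4_neg, a ratio of 39.1 (95% interval 13.08 to 192.9). Wnt4 was the ligand gene that was lower, at 2.26, 0 and 1.1 in M_DPP4_pos and 15.22, 15.32 and 20.96 in M_DPP4_neg (-3.24 ± 0.55).

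Of 36 Wnt receptor, modulator and target genes, 14 were higher and 15 lower. Dact2, the gene of an intracellular modulator, had 319.9, 320.7 and 364.5 normalised counts in M_DPP4_pos and 49.73, 49.02 and 55.49 in M_DPP4_neg (2.68 ± 0.12). Dact1 (1.01 ± 0.09), the secreted antagonist gene Sfrp4 (1.403 ± 0.12) and the membrane antagonist gene Apcdd1 (1.93 ± 0.14) were also higher. Rspo2, whose product amplifies Wnt signals, was lower (-2.77 ± 0.24), as was Dact3 (-1.998 ± 0.15), and Sfrp2 did not pass the test (-0.11 ± 0.09).

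BMP pathway genes were 14 higher and 14 lower of 32, and the ligand genes included wide gaps both ways. Bmp7 (chromosome 2, 172868012 to 172940321), a ligand gene linked to brown fat formation, had 820.7, 774 and 913 normalised counts in M_DPP4_pos and 8.12, 4.08 and 1.23 in M_DPP4_neg (7.47 ± 0.41, adjusted p = 3.52e-07). Bmp3 had 263.4, 268.8 and 330.4 in M_DPP4_pos and 2.03, 8.17 and 8.63 in M_DPP4_neg (5.48 ± 0.39), and Bmp6 had 367.4, 387.6 and 457 in M_DPP4_pos and 10.15, 9.19 and 7.4 in M_DPP4_neg (5.36 ± 0.17). Bmp8a was higher as well (4.15 ± 0.28). Gdf10, a relative of Bmp3, went the other way, with 2837, 2820 and 2722 in M_DPP4_pos and 11040, 11570 and 10570 in M_DPP4_neg (-1.98 ± 0.07). Gdf15, a stress-induced hormone gene, had 40.69, 42.68 and 47.36 in M_DPP4_pos and 713.4, 736.3 and 693 in M_DPP4_neg (-4.01 ± 0.11). TGF-beta pathway genes were 9 higher and 6 lower of 25. The receptor genes Tgfbr2 (16140, 17470 and 15530 in M_DPP4_pos and 4489, 4905 and 5195 in M_DPP4_neg), Tgfbr1 (1.27 ± 0.09) and Tgfbr3 (1.29 ± 0.07) were higher, while Ltbp4, a latent TGF-beta binding protein gene, was lower (-1.30 ± 0.10).

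Hedgehog pathway genes were 1 higher and 7 lower of 11. Hhip (chromosome 8, 79965850 to 80058060), a target whose product traps the ligand, had 1.13, 2.31 and 0 normalised counts in M_DPP4_pos and 113.7, 149.1 and 167.7 in M_DPP4_neg, which is 3 reads against 394 and a ratio of 125.2 lower (95% interval 43.19 to 619.2). Gli1, the target most used to read pathway activity, had 55.39, 62.29 and 42.95 in M_DPP4_pos and 344, 460.6 and 443.9 in M_DPP4_neg (-2.94 ± 0.17, adjusted p = 4.7e-07). The groups did not overlap for either gene. Gli2 was lower (-2.20 ± 0.15), whereas the signal transducer gene Smo (0.07 ± 0.11), Gli3 (0.11 ± 0.12) and Sufu (-0.14 ± 0.19) did not pass the test, though Sufu was called lower without M_DPP4_neg replicate 1 (-0.36). Of the co-receptor genes, Boc (-0.90 ± 0.10) and Gas1 (-1.09 ± 0.07) were lower and Cdon (0.93 ± 0.10) was higher.

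Notch pathway genes were 2 higher and 8 lower of 15, with 5 lower without M_DPP4_neg replicate 3. Just 1 was higher without M_DPP4_neg replicate 2 or 3 or M_DPP4_pos replicate 1 or 3. Notch3, a receptor gene also used as a mural marker, had 122.1, 47.3 and 26.43 in M_DPP4_pos and 488.1, 1057 and 789.2 in M_DPP4_neg (-3.76 ± 0.47), and Notch1 fell by 3.03 ± 0.22. Notch2 had 7839, 6995 and 6717 in M_DPP4_pos and 1823, 2815 and 2843 in M_DPP4_neg (1.55 ± 0.16), and the ligand gene Jag1 did not pass the test (-0.19 ± 0.09) except without M_DPP4_neg replicate 1 (-0.28).

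Growth factor genes were divided between the groups. Fgf2 had 409.2, 350.7 and 346.9 normalised counts in M_DPP4_pos and 27.4, 52.08 and 51.79 in M_DPP4_neg (3.10 ± 0.23), while Fgf10, a ligand gene tied to adipose development, had 83.65, 118.8 and 109 in M_DPP4_pos and 467.8, 439.1 and 554.9 in M_DPP4_neg (-2.23 ± 0.15). The receptor gene Fgfr1 was higher (0.75 ± 0.08) and Spry4, a feedback inhibitor gene, lower (-3.85 ± 0.20), in a family with 5 of 18 higher and 8 lower. On the IGF axis 8 of 16 were higher and 5 lower. Igf1 had 1104, 1208 and 1033 in M_DPP4_pos and 3529, 3886 and 3806 in M_DPP4_neg (-1.75 ± 0.08). Of the binding protein genes, Igfbp4 (1.59 ± 0.08), Igfbp5 (1.37 ± 0.09) and Igfbp6 (1.19 ± 0.12) were higher and Igfbp7 was lower (-2.18 ± 0.09). Among PDGF and VEGF family genes, 9 of 25 were higher and 11 lower. Pgf, the placental growth factor gene, had 966.5, 840.9 and 1252 in M_DPP4_pos and 38.56, 53.1 and 43.16 in M_DPP4_neg (4.47 ± 0.17), and Pdgfc had 518.9, 523.7 and 621.1 in M_DPP4_pos and 48.71, 53.1 and 46.86 in M_DPP4_neg (3.46 ± 0.12). Vegfa was level (-0.08 ± 0.08), and Pdgfrl was lower (-2.53 ± 0.10).

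Retinoid genes were 5 higher and 5 lower of 14. Beside Aldh1a3, the retinoic acid receptor gene Rarg was higher (1.55 ± 0.07). The carrier gene Rbp4 (-1.97 ± 0.13) and Cyp26b1, whose product degrades retinoic acid (-1.70 ± 0.10), were lower.

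Guidance and neurotrophic genes included some of the widest gaps. Sema3e, a class 3 semaphorin gene, had 2888, 2914 and 3033 normalised counts in M_DPP4_pos and 20.3, 30.64 and 29.59 in M_DPP4_neg (6.75 ± 0.15, adjusted p = 2.04e-09). Plxnd1, the gene of its receptor, had 210.3, 151.1 and 154.2 in M_DPP4_pos and 904.2, 1149 and 1111 in M_DPP4_neg (-2.62 ± 0.14). Ligand and receptor transcripts thus lay on opposite sides of the split. Of 31 semaphorin, ephrin and Slit-Robo genes, 10 were higher and 16 lower. Ntn4, a netrin gene, had 1125, 1091 and 1089 in M_DPP4_pos and 109.6, 159.3 and 120.8 in M_DPP4_neg (3.09 ± 0.13). Ntf3, the neurotrophin 3 gene, had 6.78, 6.92 and 5.51 in M_DPP4_pos and 215.1, 150.1 and 201 in M_DPP4_neg (-4.67 ± 0.21), and Cntfr, the ciliary neurotrophic factor receptor gene, had 21.48, 21.92 and 20.93 in M_DPP4_pos and 327.8, 463.6 and 419.2 in M_DPP4_neg (-4.16 ± 0.15). Of 15 neurotrophic factor and receptor genes, 4 were higher and 7 lower. Of 36 listed adhesion genes known from the nervous system, 20 passed the filter. Of these, 10 were higher and 6 lower, 3 lower without M_DPP4_neg replicate 2. Islr2 had 1628, 1642 and 1735 in M_DPP4_pos and 51.76, 53.1 and 48.09 in M_DPP4_neg (5.005 ± 0.09), while Lsamp had 3.39, 3.46 and 0 in M_DPP4_pos and 106.6, 93.95 and 102.3 in M_DPP4_neg (-5.24 ± 0.53).

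Matrix genes differed by kind, with the fibronectin gene higher and most collagen genes lower in M_DPP4_pos. Fn1 had 262100, 252500 and 267400 normalised counts in M_DPP4_pos and 24010, 36630 and 35170 in M_DPP4_neg (3.05 ± 0.15, adjusted p = 1.57e-07). Of 28 collagen genes, 5 were higher and 20 lower, with a median of -1.03. Col4a1, a basement membrane collagen gene, had 16330, 13870 and 12180 in M_DPP4_pos and 98580, 123000 and 116600 in M_DPP4_neg (-3.00 ± 0.12), and its neighbour Col4a2 fell by 3.14 ± 0.14. Col15a1 had 1846, 1407 and 975.8 in M_DPP4_pos and 22560, 29440 and 27610 in M_DPP4_neg (-4.27 ± 0.20). The fibrillar collagen genes differed less, at -1.09 ± 0.12 for Col3a1 and -0.71 ± 0.11 for Col1a1, and neither was called after quantile normalization. Col12a1, a fibril-associated collagen gene, was higher, with 4451, 4326 and 4489 in M_DPP4_pos and 533.8, 751.6 and 757.1 in M_DPP4_neg (2.72 ± 0.13).

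Laminin and basement membrane genes were 8 higher and 10 lower of 21. Lamc3 had 20.35, 6.92 and 2.2 normalised counts in M_DPP4_pos and 624.1, 829.2 and 868.1 in M_DPP4_neg (-6.56 ± 0.54, adjusted p = 5.92e-06), and Egflam fell by 3.84 ± 0.47. Lamb3, by contrast, had 196.7, 191.5 and 267.6 in M_DPP4_pos and 18.27, 16.34 and 14.8 in M_DPP4_neg (3.64 ± 0.18), and the linker gene Nid1 was higher (0.84 ± 0.12). Among fibronectin, elastic fibre and leucine-rich proteoglycan genes, 15 of 34 were higher and 11 lower. The elastic fibre gene Emilin2 (2.25 ± 0.07) and Tnxb, the tenascin X gene (1.21 ± 0.14), were higher, the small proteoglycan genes Fmod (-3.23 ± 0.12), Bgn (-2.49 ± 0.10) and Lum (-1.997 ± 0.10) were lower, and the decorin gene Dcn did not pass the test (-0.15 ± 0.10) except after quantile normalization (-0.57). Among matrix proteases and their inhibitors, 10 of 32 were higher and 16 lower. Adamts16 had 371.9, 268.8 and 475.8 in M_DPP4_pos and 7.1, 14.3 and 2.47 in M_DPP4_neg (5.59 ± 0.46), the inhibitor gene Timp2 was higher (1.12 ± 0.08), and Mmp2, a gelatinase gene, did not pass the test (-0.05 ± 0.07) except after quantile normalization (-0.29). Integrin and cadherin genes were 11 higher and 8 lower of 26. Itgb7 had 1496, 1451 and 1899 in M_DPP4_pos and 38.56, 33.7 and 24.66 in M_DPP4_neg (5.61 ± 0.17), and Itga7, the gene of a laminin receptor subunit, had 36.17, 20.76 and 17.62 in M_DPP4_pos and 491.2, 728.1 and 607.9 in M_DPP4_neg (-4.61 ± 0.25).

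Chemokine genes were 5 higher and 10 lower of 23. Cxcl1, a neutrophil attractant gene, had 103200, 100100 and 115700 normalised counts in M_DPP4_pos and 114900, 118500 and 116100 in M_DPP4_neg and did not pass the test (-0.13 ± 0.09). Its relative Cxcl3 had 3969, 4099 and 3740 in M_DPP4_pos and 648.5, 433 and 457.5 in M_DPP4_neg (2.96 ± 0.14). Cxcl9, an interferon-gamma-induced T cell attractant gene, had 232.9, 237.6 and 219.2 in M_DPP4_pos and 2974, 2653 and 3042 in M_DPP4_neg (-3.64 ± 0.08). Cytokine and receptor genes were 12 higher and 15 lower of 32. Tnfrsf11b, which encodes the decoy receptor osteoprotegerin, had 318.8, 362.2 and 269.8 in M_DPP4_pos and 17.25, 9.19 and 17.26 in M_DPP4_neg (4.39 ± 0.24). Il18 was higher (2.94 ± 0.13), Kitl, the stem cell factor gene, was lower (-2.34 ± 0.08), and Il6 did not pass the test (0.08 ± 0.10) except without M_DPP4_neg replicate 1 (0.17). Complement genes were 6 higher and 6 lower of 23. C3, the central component gene, had 243500, 239100 and 237300 in M_DPP4_pos and 116800, 130500 and 132000 in M_DPP4_neg (0.93 ± 0.09), Cfb was higher (1.21 ± 0.07), and C2 (-1.12 ± 0.08) and the vitronectin gene Vtn (-2.38 ± 0.09) were lower. In the acute phase and antimicrobial list, 5 of 16 were higher and 7 lower, and the lower members include the granulocyte genes described below.

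Interferon response genes were 10 higher and 11 lower of 28. Irf7, an interferon-induced regulator gene, had 4514, 4659 and 4247 normalised counts in M_DPP4_pos and 1524, 1326 and 1307 in M_DPP4_neg (1.69 ± 0.08), and Mx1 was higher (1.32 ± 0.16). Ifit1 (-0.77 ± 0.11) and Ifit3b (-1.04 ± 0.12) were lower. Of 17 MHC class I presentation genes 8 were lower and the others were not called, while without M_DPP4_neg replicate 1 there were 9 lower and 5 higher. H2-Q4 had 5356, 5061 and 5355 in M_DPP4_pos and 12900, 13070 and 12370 in M_DPP4_neg (-1.28 ± 0.07), and the peptide transporter gene Tap1 had 1436, 1414 and 1261 in M_DPP4_pos and 2666, 2650 and 2693 in M_DPP4_neg (-0.96 ± 0.07). H2-Q10 was among the 15 lowest genes, with 12.43, 2.31 and 5.51 in M_DPP4_pos and 435.4, 427.9 and 442.7 in M_DPP4_neg (-6.04 ± 0.41). Class I genes have near-identical copies, so reads may be split among them.

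Patterning genes outside the HOX clusters were 14 higher and 12 lower of 38. Sox9, a chondrogenic regulator gene, had 147, 165 and 155.3 normalised counts in M_DPP4_pos and 1725, 1633 and 1721 in M_DPP4_neg (-3.44 ± 0.08), and Meox1 had 6.78, 9.23 and 7.71 in M_DPP4_pos and 217.2, 229.8 and 181.3 in M_DPP4_neg (-4.56 ± 0.19). Pitx1, a hindlimb identity gene, had 84.78, 79.6 and 109 in M_DPP4_pos and 5.07, 5.11 and 4.93 in M_DPP4_neg (3.92 ± 0.24), and Tbx5 was higher too (2.69 ± 0.24). The forkhead gene Foxs1 was among the 15 lowest genes, with 4.52, 0 and 1.1 in M_DPP4_pos and 109.6, 133.8 and 109.7 in M_DPP4_neg (-5.71 ± 0.53). HOX genes were 5 higher and 3 lower of 23, 3 higher without M_DPP4_pos replicate 2 and 5 lower without M_DPP4_neg replicate 1 and with Hoxc11 higher by 1.25 ± 0.16. Nuclear receptor genes were 7 higher and 5 lower of 23, 10 lower without M_DPP4_neg replicate 1. Nr4a3, an immediate early orphan receptor gene, had 2174, 1839 and 2293 in M_DPP4_pos and 129.9, 226.7 and 258.9 in M_DPP4_neg (3.40 ± 0.22, adjusted p = 1.04e-06), the retinoid-related orphan receptor gene Rorb was higher (3.12 ± 0.17) and Nr2f2, the COUP-TFII gene, fell by 2.35 ± 0.10.

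Lipid mediator and steroid genes gave further gaps. Ptgs2, the inducible cyclooxygenase gene, had 52820, 52030 and 57630 normalised counts in M_DPP4_pos and 13090, 17110 and 15180 in M_DPP4_neg (1.85 ± 0.10), and Ptgs1 (2.93 ± 0.13) and the prostacyclin synthase gene Ptgis (2.89 ± 0.07) were higher too. Enpp2, whose product autotaxin makes lysophosphatidic acid, had 579.9, 411.8 and 388.8 in M_DPP4_pos and 7679, 7084 and 8261 in M_DPP4_neg (-4.08 ± 0.14), and Ephx2, an epoxide hydrolase gene, fell by 3.75 ± 0.27. That list had 6 of 18 higher and 7 lower. Steroid metabolism genes were 4 higher and 5 lower of 14. The steroid reductase gene Srd5a1 was higher (2.19 ± 0.17), and Hsd11b2, whose product inactivates glucocorticoids, had 12.43, 2.31 and 6.61 in M_DPP4_pos and 121.8, 135.8 and 157.8 in M_DPP4_neg (-4.32 ± 0.43).

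Receptor genes for peptides, lipids and amines were 15 higher and 18 lower of 43. Adra1b, an alpha-adrenergic receptor gene, had 1332, 1353 and 1438 normalised counts in M_DPP4_pos and 68, 71.48 and 59.19 in M_DPP4_neg (4.36 ± 0.10), and Ackr3, a chemokine scavenger gene, had 18330, 18510 and 19870 in M_DPP4_pos and 3935, 3820 and 4001 in M_DPP4_neg (2.27 ± 0.07). Lepr, the leptin receptor gene, had 7.91, 6.92 and 5.51 in M_DPP4_pos and 108.6, 103.1 and 139.3 in M_DPP4_neg (-3.92 ± 0.23), and Npy1r, a neuropeptide Y receptor gene, had 4.52, 5.77 and 8.81 in M_DPP4_pos and 75.1, 69.44 and 106 in M_DPP4_neg (-3.54 ± 0.29). The groups did not overlap for any of these 4 receptor genes. In the renin-angiotensin and natriuretic peptide list, 5 of 13 were higher, 3 without M_DPP4_pos replicate 3, and 5 were lower. Ace had 50540, 50370 and 51320 in M_DPP4_pos and 14140, 17460 and 16960 in M_DPP4_neg (1.65 ± 0.09), while Agt, the angiotensinogen gene, had 193.3, 158 and 164.1 in M_DPP4_pos and 2071, 1615 and 1697 in M_DPP4_neg (-3.37 ± 0.12). Edn1, the endothelin 1 gene, had 748.3, 648.3 and 801.8 in M_DPP4_pos and 22.33, 24.51 and 13.56 in M_DPP4_neg (5.15 ± 0.20). Ion channel and pump genes were 7 higher and 13 lower of 33, among them Clic5, an intracellular chloride channel gene (304.1, 250.3 and 268.7 in M_DPP4_pos and 13.19, 13.28 and 14.8 in M_DPP4_neg). Piezo1, the mechanosensitive channel gene, was not called (0.03 ± 0.19) but was lower without M_DPP4_neg replicate 1, at -0.24 with an adjusted p of 0.0013.

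Of 35 glutathione and redox genes, 11 were higher and 12 lower in M_DPP4_pos. Duox1, a hydrogen peroxide-producing oxidase gene, had 1226, 1232 and 1525 normalised counts in M_DPP4_pos and 20.3, 29.61 and 27.13 in M_DPP4_neg (5.65 ± 0.16, adjusted p = 5.44e-09), and its maturation factor gene Duoxa1 had 391.1, 371.4 and 568.3 in M_DPP4_pos and 10.15, 5.11 and 14.8 in M_DPP4_neg (5.41 ± 0.32). Nox4, another oxidase gene, was higher as well (2.36 ± 0.08), while the glutathione transferase family gene Mgst3 fell by 2.34 ± 0.17. Among myofibroblast and YAP target genes, 7 of 18 were higher and 8 lower. Cyr61, a matricellular target gene, had 6848, 6702 and 6959 in M_DPP4_pos and 30010, 27620 and 29860 in M_DPP4_neg (-2.09 ± 0.07), its relative Nov had 1106, 1259 and 1197 in M_DPP4_pos and 156.3, 115.4 and 113.4 in M_DPP4_neg (3.21 ± 0.13), and the receptor kinase gene Axl was higher (1.49 ± 0.08).

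Immediate early and dissociation stress genes were 7 higher and 18 lower of 30, with a median of -0.63. Jun had 5597, 5077 and 4423 normalised counts in M_DPP4_pos and 17540, 18020 and 18260 in M_DPP4_neg (-1.84 ± 0.09, adjusted p = 1.57e-07), Egr1 had 10790, 9624 and 10130 in M_DPP4_pos and 27450, 32510 and 31040 in M_DPP4_neg (-1.57 ± 0.09), and Fos fell by 1.55 ± 0.13. Fosl2, a relative of Fos, was higher (1.36 ± 0.10). Such genes respond to tissue digestion and sorting, and the part of handling in these levels was not tested. Of 18 integrated stress response genes 12 were lower and the others were not called. Atf4, the central regulator gene, had 3595, 3714 and 4013 in M_DPP4_pos and 5878, 5671 and 5855 in M_DPP4_neg (-0.62 ± 0.07), the one-carbon enzyme gene Mthfd2 fell by 1.51 ± 0.13, and the chaperone gene Hspa5 did not pass the test (0.03 ± 0.08). Lysosome genes were 9 higher and 13 lower of 31, with 5 higher without M_DPP4_neg replicate 3 or without any one M_DPP4_pos library. The protease gene Ctsk was lower (-1.45 ± 0.09) and Ctsb was level (-0.03 ± 0.07).

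Counts for ribosomal protein and respiratory chain genes rested on 1 library. Of 39 cytosolic ribosomal protein genes, 3 were higher in M_DPP4_pos with a median of 0.17, and without M_DPP4_neg replicate 1 the count was 38 with a median of 0.39. Their summed normalised counts were 231800, 230100 and 249900 in M_DPP4_pos and 267500, 174700 and 187100 in M_DPP4_neg, so replicate 1 of M_DPP4_neg alone lay above M_DPP4_pos. Oxidative phosphorylation genes were 2 higher of 35, and 22 without that library, with medians of 0.09 and 0.27. Without one of M_DPP4_neg replicates 2 and 3 or M_DPP4_pos replicates 1 and 2 the count was 1. The same library was high for short transcripts, and the part of length in these counts was not tested. Glycolysis and hypoxia genes were 9 higher and 4 lower of 24, with Hk2, a hexokinase gene, at 26820, 25830 and 27240 in M_DPP4_pos and 14780, 15690 and 15690 in M_DPP4_neg (0.79 ± 0.07) and the adrenomedullin gene Adm higher (1.15 ± 0.08). Cell cycle genes were 4 higher and 7 lower of 34. The lower count was 11 without M_DPP4_neg replicate 1 and 4 without M_DPP4_neg replicate 3 or M_DPP4_pos replicate 1, and the higher count was 2 without M_DPP4_pos replicate 2 or 3. The cell cycle inhibitor gene Cdkn1c was higher (1.92 ± 0.14) and Cdkn1a did not pass the test (0.05 ± 0.07).

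Granulocyte transcripts were carried by M_DPP4_neg. S100a9, a calprotectin subunit gene, had 1.13, 0 and 0 normalised counts in M_DPP4_pos and 952.9, 261.4 and 800.2 in M_DPP4_neg (-8.83 ± 0.49, adjusted p = 3.75e-07), and its partner S100a8 had 3.39, 1.15 and 2.2 in M_DPP4_pos and 687.1, 183.8 and 505.6 in M_DPP4_neg. Ltf, the lactoferrin gene, had 0 reads in M_DPP4_pos and 735 in M_DPP4_neg, so it was at least 242.4-fold lower in M_DPP4_pos, taking 3 reads in the group as the floor. A list of 14 neutrophil genes, chosen after these values were seen, had 10 members past the filter, and 10 of these were lower. They passed through M_DPP4_neg alone, so that count is no support. It summed to 22.61, 10.38 and 6.61 in M_DPP4_pos and 3154, 1005 and 2988 in M_DPP4_neg, so replicate 2 held the least of the M_DPP4_neg libraries. Other genes among the 15 lowest were not granulocyte genes. Olfm2, an olfactomedin gene, had 7.91, 6.92 and 7.71 in M_DPP4_pos and 484.1, 562.7 and 575.8 in M_DPP4_neg (-5.99 ± 0.15), and Acsbg1, an acyl-CoA synthetase gene, had 1.13, 2.31 and 2.2 in M_DPP4_pos and 167.5, 208.3 and 155.4 in M_DPP4_neg (-5.97 ± 0.27). Pde1b, a cyclic nucleotide phosphodiesterase gene, had 19.22, 8.07 and 13.22 in M_DPP4_pos and 714.5, 803.7 and 836 in M_DPP4_neg (-5.83 ± 0.25). Igsf21 (-5.62 ± 0.58) and Cox8b, a respiratory chain subunit gene of muscle and brown fat (-5.59 ± 0.51), complete that set with H2-Q10, Foxs1, Lamc3 and Hhip.

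Markers of other cell types were read in the same way. Macrophage markers summed to 294.1 to 370.8 in M_DPP4_pos and 544.3 to 885 in M_DPP4_neg, with 5 lower of 11, among them Lyz2, the lysozyme gene, and Tyrobp. Mural markers summed to 640.2 to 807.1 in M_DPP4_pos and 2044 to 2951 in M_DPP4_neg, with 7 lower of 9, 4 without M_DPP4_neg replicate 3 or M_DPP4_pos replicate 2. Both sets lay lower in every M_DPP4_pos library. Lymphocyte markers summed to 41.85 to 72.67 in M_DPP4_pos and 91.91 to 186.2 in M_DPP4_neg, and 3 of the 10 listed passed the filter, too few for a count. Endothelial markers were 2 higher of 11. The receptor genes Tek (4024, 3808 and 4032 in M_DPP4_pos and 618, 708.7 and 695.4 in M_DPP4_neg) and Kdr were higher, while the defining markers Pecam1 (0.03 ± 0.17) and Cdh5 (-0.01 ± 0.21) did not pass the test. Mature adipocyte markers summed to 252.6 to 421.6 in M_DPP4_pos and 360.1 to 644.4 in M_DPP4_neg, with 2 lower of 7, 1 without M_DPP4_pos replicate 2 or 3. Schwann cell markers summed to 404.9 to 481.3 in M_DPP4_pos and 330.8 to 332.9 in M_DPP4_neg, with 5 of 8 past the filter. Of those 5, 1 was higher and 3 were lower, with a median of -2.43, so the sum and most members went opposite ways. Skeletal muscle markers summed to 124.6 to 245.3 in M_DPP4_pos and 293.1 to 395.8 in M_DPP4_neg, with 4 of 8 past the filter. Mesothelial markers summed to 52.86 to 105.1 in M_DPP4_pos and 51.79 to 91.34 in M_DPP4_neg, and erythroid markers to 38.55 to 55.39 in M_DPP4_pos and 38.22 to 98.44 in M_DPP4_neg, so the groups overlapped in both. Of 10 epithelial markers 1 passed the filter, Cldn3, with 89.3, 83.06 and 113.4 in M_DPP4_pos and 4.06, 4.08 and 3.7 in M_DPP4_neg, while Epcam had 3.39, 1.15 and 1.1 in M_DPP4_pos and 5.07, 5.11 and 3.7 in M_DPP4_neg. The part of other cells in the results above was not tested.

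The same split was compared in females, with no library shared. In females 6343 of 13951 genes were called (45.5%), and the difference between the male and the female contrast was itself called for 3286 (23.6%), 1924 with the male contrast higher (13.8%) and 1362 with it lower (9.76%). After quantile normalization that split was 1728 and 1782. Over the 13045 genes of the male comparison, 21.7% were higher and 22.7% lower in F_DPP4_pos. Of the genes higher in M_DPP4_pos, 1770 were also higher in F_DPP4_pos, which is 57.4% of the male and 62.5% of the female calls, and 208 were lower there. Of those lower in M_DPP4_pos, 1685 were lower in F_DPP4_pos too, which is 56.4% of the male and 56.9% of the female calls, and 143 were higher. Interstitial progenitor genes were 20 higher of 20 in males and 20 of 20 in females, with medians of 3.49 in males and 2.35 in females, and for 13 the male contrast was higher by the test of the difference. Committed preadipocyte genes were 16 lower of 17 in males and 15 of 17 in females, and for 12 the male contrast was lower. Beside this stands the gate gene, since Dpp4 had 17360, 20850 and 18410 normalised counts in F_DPP4_pos and 4213, 2124 and 1150 in F_DPP4_neg. Pi16 had 54930, 69540 and 58040 in F_DPP4_pos and 11180, 6285 and 3360 in F_DPP4_neg, in the same order of F_DPP4_neg libraries as Dpp4. F_DPP4_neg libraries thus carried more of both transcripts than M_DPP4_neg libraries did, and the part of the gate in the difference was not tested.

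**Figure D5:**
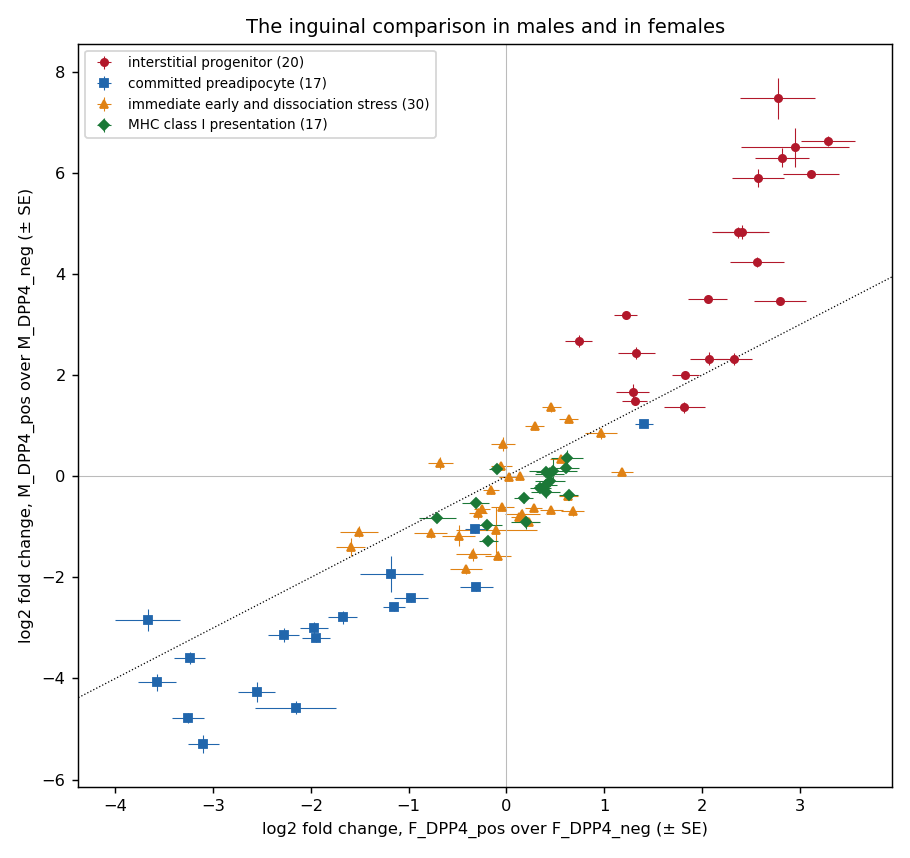
Log2 fold changes with SE bars of 4 gene lists are drawn for males (M_DPP4_pos over M_DPP4_neg, y axis) against females (F_DPP4_pos over F_DPP4_neg, x axis), with the number of members in brackets and a dotted line where both are equal. Median fold changes are 3.49 in males and 2.35 in females for interstitial progenitor genes (red), -3.00 in males and -1.97 in females for committed preadipocyte genes (blue), -0.63 in males and -0.01 in females for immediate early genes (orange), and -0.23 in males and 0.40 in females for MHC class I genes (green).

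Members of several gene groups differed between the sexes by that test. MHC class I genes were 8 lower in the male contrast, against 9 higher and 1 lower in the female one, and for 8 of 17 the male contrast was lower. Interferon genes gave 10 such differences of 28, with 14 higher and 1 lower in females. Immediate early genes gave 5 with the male contrast higher and 15 with it lower of 30. Fosb, for example, was lower in males (-0.69 ± 0.09) and higher in females (0.68 ± 0.12). Fn1 had 270600, 282900 and 238400 in F_DPP4_pos and 244300, 218400 and 200800 in F_DPP4_neg, and its contrast was 2.80 ± 0.25 higher in males (adjusted p = 2.17e-06). Col12a1 (3.35 ± 0.17), Clic5 (4.34 ± 0.39), Nr4a3 (3.39 ± 0.29), Nt5e (3.20 ± 0.17) and Cd24a (4.22 ± 0.33) also had a higher contrast in males. For Col12a1, Nt5e and Cd24a the difference exceeded the male contrast given above, so the fitted female contrast was negative, opposite to the male one. Spon1, a matricellular protein gene, had 573.1, 432.6 and 408.6 in M_DPP4_pos and 2041, 3105 and 2644 in M_DPP4_neg, but 9051, 8434 and 12550 in F_DPP4_pos and 4919, 3650 and 3677 in F_DPP4_neg, a difference of -3.74 ± 0.25. Epithelial genes were among the widest differences with the male contrast higher. Krt7, a keratin gene of simple epithelia, had 22.01, 42.92 and 20.65 in F_DPP4_pos and 450.5, 1131 and 689.5 in F_DPP4_neg, against 5.65, 2.31 and 4.41 in M_DPP4_pos and 0, 3.06 and 0 in M_DPP4_neg. Of the 10 epithelial markers, 1 passed the filter in the male libraries and 10 once the female libraries were added, so no count over them is given as support. The part of epithelial cells in the difference between the sexes was not tested.

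The male gonadal pair, M_FIP against M_APC, gave 5235 calls of 13809 genes (37.9%), and the difference between the inguinal and the gonadal contrast was called for 3943 (28.6%). Over the same 13045 genes, 19.9% were higher and 18.6% lower in M_FIP. Of the genes higher in M_DPP4_pos, 1575 were higher in M_FIP (51.1% of the inguinal and 60.6% of the gonadal calls) and 162 lower, and of those lower, 1408 were lower in M_FIP (47.1% of the inguinal and 58.1% of the gonadal calls) and 236 higher. Wnt10b had a contrast of 6.19 ± 0.12 inguinal and 6.25 ± 0.16 gonadal, and the difference of -0.07 ± 0.23 did not pass the test (adjusted p = 0.863). Aldh1a3 had 3154, 3425 and 3554 normalised counts in M_FIP and 3654, 3429 and 3423 in M_APC, so the gonadal groups overlapped at a high level. Its contrast was higher in the inguinal depot (difference 5.96 ± 0.21, adjusted p = 6.12e-11). Pgf (4.25 ± 0.21), the scavenger receptor gene Stab1 (4.498 ± 0.24), Itgb7 (5.49 ± 0.42) and Bmp3 (4.81 ± 0.65) likewise had a higher contrast in the inguinal depot. Gfra2, the neurturin receptor gene, had 39.56, 63.45 and 37.44 in M_DPP4_pos and 98.44, 79.65 and 101.1 in M_DPP4_neg, but 226.7, 281.8 and 287.6 in M_FIP and 3.22, 13.91 and 10.18 in M_APC (-5.91 ± 0.49). Cd9, a tetraspanin gene, was lower in M_DPP4_pos (-1.06 ± 0.08) and higher in M_FIP (3.94 ± 0.10). It belongs to the list of gate and mesenchymal surface genes, and the gonadal gates are not given in full. The part of the sort in its gonadal contrast was not tested. Gli1 was lower in M_DPP4_pos and higher in M_FIP (1.59 ± 0.20), a difference of -4.53 ± 0.28, while Hhip was lower in both (-2.78 ± 0.34 gonadal). S100a9 had 0.945, 1.78 and 0.813 in M_FIP and 1.07, 8.11 and 0 in M_APC, under 10 in each gonadal library, while M_DPP4_neg libraries lay above 200.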

How the data were processed

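RNA was taken from sorted PDGFRb+ cells with Trizol, and libraries were made from 0.5 ug total RNA with NEBNext Ultra II, as the labels' protocols state. The submitters' processing notes name the aligner HISAT2 2.0.1, the trimmer Trim Galore 0.4.1, the normaliser DESeq2 1.6.3, the counter featureCounts 1.4.6 and the builds GRCm38 and mm10. The deposited values are a signal per gene, which are the authors' normalised counts: whole reads over a size factor of each library, as the steps between low values show. Values were rounded to 4 significant digits for printing. Whether counting used strand is not given in the sources used here, so overlapping or antisense genes and near-identical copies (ribosomal proteins, class I genes, Ly6a, Ly6c1, Akr1c18) are uncertain.

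Genes reaching 10 in 3 or more of the libraries compared were tested on log2(value + 1) with limma 3.58.1 in R 4.3.3, with a mean-variance trend, and a call needed an adjusted p (Benjamini-Hochberg, over all genes in the fit) under 0.05. Differences between contrasts (female, gonadal) were tested in 1 model over 12 libraries each. Reads were recovered for the 6 libraries within 0.01 of whole numbers, and edgeR 4.0.16 and DESeq2 1.42.0 were run on them as alternatives, beside another pseudocount (10), no filter, quantile normalization, a replicate block, all 24 libraries and leaving out each library. The limma and edgeR tests were also run on simulated reads. These held no library skewed by transcript length, and no result given here rests on that run. Ratios of reads have exact 95% intervals, and intervals and floors cover counting error only. Coordinates were matched by gene identifier for 25275 of 27179 genes.

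The genes, gene lists and tests were chosen with earlier results of these data known. Genes named are the 15 highest and 15 lowest called, non-overlapping genes whose higher group averages 100 or more, up to 5 called members by size and the 3 most read per list (all of lists up to 14), the 8 highest and 8 lowest of each contrast difference, and the gate and sex-linked genes.

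Some genes of the lists are not reported here by name.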

Additional observations from a re-analysis of the deposited data

Results flagged for a closer look

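Contrasts between DPP4+ and DPP4- cells that differed most between males and females were picked by the naming rule above. They are given from the test of the difference itself, as log2 differences, male contrast minus female contrast, with standard errors. The male contrast was higher for Cldn3 (7.209 ± 0.409), Gipc2 (6.512 ± 0.914), Krt7 (6.283 ± 0.715), Ido1 (6.057 ± 0.655), Nxph3 (5.865 ± 0.671), St14 (5.783 ± 0.491), Plet1 (5.723 ± 0.26) and Ocln (5.502 ± 0.884). Krt7, Cldn3, St14, Plet1 and Ocln are genes of epithelia, and their levels in F_DPP4_neg are given for Krt7 in the comparison with females. The male contrast was lower for Npy1r (-3.856 ± 0.336), Spon1 (-3.74 ± 0.251), S100a9 (-3.681 ± 1.08), Ltf (-3.675 ± 0.628), Ubd (-3.611 ± 0.548), Pde1b (-3.61 ± 0.364), Cldn11 (-3.458 ± 1.12) and Trdn (-3.407 ± 0.724). The adjusted p of limma was 0.0217 for S100a9 and 0.0351 for Cldn11, the weakest of these. The S100a9 difference lost its call when 1 of these libraries was left out, which were F_DPP4_neg replicate 2 (-2.836), F_DPP4_pos replicate 1 (-2.907), M_DPP4_neg replicate 1 (-3.329), M_DPP4_neg replicate 3 (-3.455) and M_DPP4_pos replicate 2 (-3.499). The Cldn11 difference was not called in 8 of the 12 fits that left out 1 library, at -2.589 to -3.365 in those 8, nor after quantile normalization (-3.285). The Ltf difference was not called with a pseudocount of 10, at -1.051. S100a9 and Ltf are granulocyte genes, and genes of that kind were lower in F_DPP4_pos too. Of 11 members of the neutrophil list tested there, 10 were lower, with a median of -3.58. For 4 the male contrast was lower by the test of the difference. The list was chosen after values were seen, so these counts are no support.

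Between the depots, as inguinal contrast minus gonadal contrast, the inguinal contrast was higher for Mal2 (6.619 ± 0.706), Aldh1a3 (5.956 ± 0.206), Itgb7 (5.49 ± 0.416), Bmp3 (4.812 ± 0.653), Gpr1 (4.688 ± 0.543), Stab1 (4.498 ± 0.243), Pgf (4.249 ± 0.207) and Dmkn (4.046 ± 0.495). It was lower for Ltf (-8.808 ± 0.803), S100a9 (-8.514 ± 0.962), Ngp (-7.575 ± 0.86), S100a8 (-7.323 ± 0.832), Chil3 (-6.361 ± 0.946), Camp (-6.057 ± 0.755), Gfra2 (-5.905 ± 0.488) and Lsamp (-5.314 ± 0.669). The first 6 of these lower genes are granulocyte genes, whose summed levels in the inguinal libraries stand in the report.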

How the results depend on the processing

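Of 441 named genes tested, 367 were called and 331 of these kept their call and direction under every setting tried. The count of 6074 called genes ranged from 4925 to 7340 when 1 library was left out (2444 to 3929 higher and 2481 to 3411 lower), and was highest without M_DPP4_neg replicate 1. It was 6136 with a pseudocount of 10, 5831 after quantile normalization, 6976 with all 24 libraries, 5965 by edgeR, 5373 by DESeq2 and 2170 when a 2-fold change was also asked. The difference between the sexes ranged from 2617 to 3614 calls (1495 to 2072 with the male contrast higher, 1122 to 1542 lower), and the difference between the depots from 3280 to 4887 (1450 to 2339 higher, 1830 to 2548 lower). Piezo1 changed direction, with -0.2415 without M_DPP4_neg replicate 1 against 0.1894 without M_DPP4_neg replicate 2. Ptx3 was 0.27 and not called, but was called higher at 0.3987 without M_DPP4_neg replicate 1 and lower at -0.311 after quantile normalization. The cause of these changes was not tested. The labels do not say whether replicate numbers pair the samples. Deviations of libraries with the same number correlated at -0.102, -0.0839 and -0.101, and with different numbers at 0.00848 to 0.0727. Deviations within a group are bound to each other by its mean, so these values cannot decide whether the samples were paired. With the replicate number as a block, 5331 genes were called, and 3160 and 3663 differences between sexes and depots. Quantile normalization moved some list counts by over 1.5 times, among them HOX genes (8 higher), nuclear receptors (8 lower), lysosome genes (5 higher) and genes of glycolysis (7 lower). Depth limits genes near 0 in one group, behind which few reads stand.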

Other observations

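Reads of 4 mast cell protease genes, picked after their values were seen, lay mostly in the M_DPP4_neg libraries. Over the group, Mcpt4 had 2 reads in M_DPP4_pos and 226 in M_DPP4_neg, and Cma1 had 1 in M_DPP4_pos and 141 in M_DPP4_neg. Tpsb2 had 3 reads in M_DPP4_pos and 173 in M_DPP4_neg, and Cpa3 had 1 in M_DPP4_pos and 117 in M_DPP4_neg. Oprd1, the delta opioid receptor gene, had 0 reads in M_DPP4_pos and 202 in M_DPP4_neg. In the other direction, Ackr4, a chemokine scavenger gene, had 173 reads in M_DPP4_pos and 1 in M_DPP4_neg.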
